A study of Mus musculus with 6 samples.

Results

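MHC class I presentation was followed through 10 genes, taken from the deposited table by gene name out of 57010 rows. These were the classical heavy chains H2-K1 and H2-D1, the non-classical heavy chains H2-Q4, H2-Q6, H2-Q7, H2-T22, H2-T23 and H2-M3, the light chain B2m and the peptide transporter subunit Tap1. The cells were primary neonatal mouse cardiomyocytes (NMCMs) of the C57BL/6 strain, which the study separated from fibroblasts by differential adhesion. All 6 RNA-seq libraries came from NMCMs under hypoxia (HO), 3 with vehicle (V1, V2 and V3) and 3 with β-sitosterol, a plant sterol (HO + β-SITO, T4, T5 and T6). There was no library of cells kept under normal oxygen, so each level is that of a hypoxic culture. No dose or length of treatment was stated for these libraries. Nothing in the labels said whether the 3 libraries of a group came from separate cultures, so p-values measure only the spread between these libraries, which may be technical. All T library names, and no V library name, carried an added letter C, which cannot be told apart from treatment.

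A class I molecule is a heavy chain that binds β2-microglobulin, the product of B2m, and a short peptide. The proteasome cuts cytosolic proteins into peptides, the TAP transporter (Tap1 with Tap2) carries them into the endoplasmic reticulum, and tapasin, calreticulin and ERp57 help to load them. CD8 T cells read the loaded molecule at the cell surface, and natural killer cells read its presence. Most nucleated cells carry class I, cardiomyocytes only weakly at rest, and interferons raise its transcription through factors such as IRF1 and the coactivator NLRC5.

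Total gene counts ran from 16694734 to 17082129 in the V group and from 16962152 to 18460522 in the T group. The 10 members took 0.936% to 0.982% of all counts in the V libraries and 0.133% to 0.149% in the T libraries. A gene is called a DEG below where edgeR's quasi-likelihood test gave a Benjamini-Hochberg adjusted p under 0.05, over 14799 tested genes, with more than 2-fold change. CPM is the count scaled to library size by TMM, and log2 fold changes are HO + β-SITO minus HO + Vehicle. Over all tested genes the median log2 fold change was -0.01.

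The promoters are shown because class I genes are known for a shared set of upstream elements, and because all 10 genes moved the same way. RefSeq promoters of build GRCm38.p6 were matched by symbol for all 10 members (H2-K1 had 2 entries and the first was used). The 250 bases before each start were searched on both strands for GGGNNTTCC (an NF-κB type site), AANNGAAA (an IRF core), TGACG (a CRE core) and CCAAT. Each match is in capitals in the stretches below, which end at or before the base ahead of the start site.
H2-K1, chr17:34000348-34000472, minus strand: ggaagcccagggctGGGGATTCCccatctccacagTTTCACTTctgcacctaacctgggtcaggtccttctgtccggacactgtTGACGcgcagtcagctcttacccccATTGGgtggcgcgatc
H2-D1, chr17:35262909-35263051, plus strand: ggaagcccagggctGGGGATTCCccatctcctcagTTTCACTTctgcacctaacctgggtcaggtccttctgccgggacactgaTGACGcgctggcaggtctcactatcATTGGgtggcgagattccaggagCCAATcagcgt
H2-Q6, chr17:35424663-35424805, plus strand: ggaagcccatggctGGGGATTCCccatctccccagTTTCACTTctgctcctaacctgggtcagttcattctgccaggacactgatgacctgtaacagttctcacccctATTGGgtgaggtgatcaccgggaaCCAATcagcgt
H2-T23, chr17:36032718-36032860, minus strand: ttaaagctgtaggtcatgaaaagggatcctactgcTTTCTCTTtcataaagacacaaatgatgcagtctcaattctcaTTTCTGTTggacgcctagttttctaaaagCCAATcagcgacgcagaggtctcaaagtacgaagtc
B2m, chr2:122147515-122147657, plus strand: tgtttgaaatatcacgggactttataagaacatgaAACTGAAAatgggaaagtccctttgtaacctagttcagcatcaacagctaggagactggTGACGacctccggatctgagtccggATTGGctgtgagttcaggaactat
Tap1, chr17:34187435-34187555, plus strand: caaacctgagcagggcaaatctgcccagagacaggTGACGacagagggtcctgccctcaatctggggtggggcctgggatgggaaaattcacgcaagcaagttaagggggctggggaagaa

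H2-K1, H2-D1 and H2-Q6 carried the NF-κB type letters just upstream of the IRF core, in the same order. The NF-κB type motif was found in 5 of the 10 members, H2-K1, H2-D1, H2-Q4, H2-Q6 and H2-Q7, against 4.98% of 32851 mouse promoters. The IRF core was found in 9 of 10, all but Tap1, against 21.3% of promoters. The CRE core was found in 8 of 10, all but H2-Q6 and H2-T23, against 17.8%. CCAAT was found in all 10, against 33.8%, and the Tap1 match lies outside the stretch printed. The motifs were chosen because class I genes are known for such elements, so an excess over all promoters was likely from the start. H2-K1, H2-D1 and H2-Q6 have near-identical letters around the NF-κB type site, so their matches are not separate finds. All matches given here are a description of the letters. Whether they go with the size of a member's change was not tested.

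All 10 members were lower in the HO + β-SITO group. All 10 passed the filter on low counts and were DEGs, against 10.08% of all tested genes called lower. In all 10, no T library reached the lowest V library, a separation that 35.8% of all tested genes also showed in that direction. H2-Q6 and H2-Q7 passed the filter only through their V libraries, so a lower call and a separation were close to fixed for them. The members' log2 fold changes ran from -9.04 in H2-Q6 to -2.14 in B2m, with a median of -3.80. In bulk libraries such as these, fewer cells of a type and less RNA per cell cannot be told apart.

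**Figure D1:**
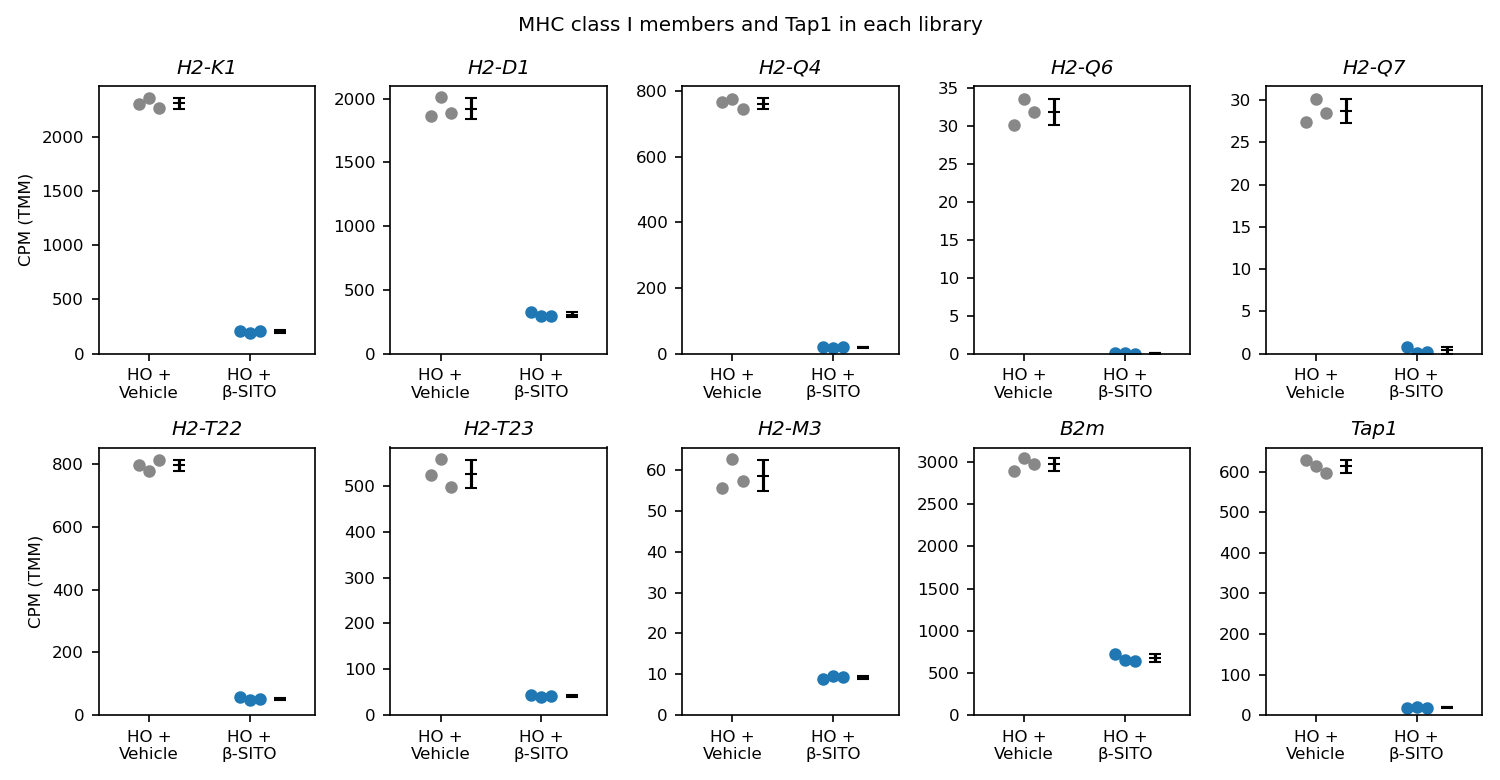
Each panel gives 1 gene as CPM (TMM scaled, linear axis from 0) in the 3 HO + Vehicle and 3 HO + β-SITO libraries, as points, with the group mean and SD beside them. In all 10 panels the HO + β-SITO points lie below the HO + Vehicle points, from B2m (675 against 2975 CPM) to H2-Q6 (0.0546 against 31.8 CPM).

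The classical heavy chains, which present peptides to CD8 T cells, held most heavy-chain counts in both groups. H2-K1 had 36453, 37707 and 36604 counts in V1, V2 and V3, and 4136, 3418 and 3942 counts in T4, T5 and T6. The V libraries lay close together and the T libraries were all far below them. This was 2312 ± 48.2 CPM (SD, n = 3) with vehicle and 203 ± 10.3 CPM (SD, n = 3) with β-SITO, 11.4-fold lower (log2 fold change -3.51, SE 0.0663, edgeR adjusted p = 6.98e-16). H2-D1, the other classical chain, had 29542, 32100 and 30448 counts in V1, V2 and V3, and 6324, 5172 and 5695 counts in T4, T5 and T6. Per kilobase of all annotated exons, H2-D1 was near H2-K1 in the V group but stood above it in every T library. How near they were depends on the lengths used. H2-D1 went from 1922 ± 79.1 to 304 ± 18.4 CPM (SD, n = 3 each), 6.32-fold lower (log2 fold change -2.66, SE 0.0673, edgeR adjusted p = 1.93e-14).

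The Q-region chains gave the largest changes among the heavy chains. H2-Q4, a non-classical chain, had 12141, 12384 and 12033 counts in the V libraries and 403, 315 and 363 counts in T4, T5 and T6. It went from 763 ± 15.6 to 19.1 ± 1.51 CPM (SD, n = 3 each), 39.9-fold lower (log2 fold change -5.32, SE 0.0756, edgeR adjusted p = 5.89e-17). With over 300 counts left in each T library, this is the best counted of the 3 Q genes.

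H2-Q6 and H2-Q7 encode Qa-2 molecules, which can sit in the membrane by a lipid anchor and of which some forms are secreted. H2-Q6 had 477, 535 and 514 counts in V1, V2 and V3, and 1, 2 and 0 counts in T4, T5 and T6. It was close to absent from the T libraries, where 3 counts stand for 0.154 to 0.169 CPM. Summed over libraries, 1526 against 3 counts gave a 599-fold lower level, with an exact 95% interval of 205 to 2910 that covers counting error only. The fitted log2 fold change was -9.04 (SE 0.230, edgeR adjusted p = 2.05e-14) and -9.89 without T5, which held 2 of the 3 counts.

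H2-Q7 had 433, 481 and 460 counts in V1, V2 and V3, and 16, 1 and 4 counts in T4, T5 and T6. T4 held most of the T group's counts. Summed, 1374 against 21 counts gave a 77.1-fold lower level (exact 95% interval 50.2 to 125, counting error only). The fitted log2 fold change was -6.24 (SE 0.253, edgeR adjusted p = 6.24e-12) and -7.65 without T4. H2-Q6 and H2-Q7 are near-identical over part of their length. Of windows of 150 bases along the transcripts, 5.99% of those of H2-Q6 also occur in H2-Q7, and 9.68% of those of H2-Q7 occur in H2-Q6 or H2-Q5, so how reads were divided among these 3 genes is uncertain.

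The T- and M-region chains changed by amounts between those of H2-Q7 and H2-D1. H2-T22, a non-classical molecule recognised by some γδ T cells, had 12600, 12390 and 13146 counts in V1, V2 and V3, and 1089, 867 and 976 counts in T4, T5 and T6. It went from 796 ± 19.0 to 51.8 ± 3.72 CPM (SD, n = 3 each), 15.3-fold lower (log2 fold change -3.94, SE 0.0701, edgeR adjusted p = 3.98e-16). Its neighbour H2-T23 encodes Qa-1, which shows leader peptides of other class I chains to the CD94/NKG2 receptors of natural killer cells. H2-T23 had 8297, 8907 and 8034 counts in V1, V2 and V3, and 848, 704 and 811 counts in T4, T5 and T6. It went from 527 ± 30.3 to 41.8 ± 2.04 CPM (SD, n = 3 each), 12.6-fold lower (log2 fold change -3.66, SE 0.0700, edgeR adjusted p = 7.85e-16). Per kilobase of exon, H2-T22 was above H2-T23 in every library of both groups.

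H2-M3, which presents formylated peptides of bacteria and mitochondria, had 882, 1002 and 926 counts in V1, V2 and V3, and 173, 170 and 179 counts in T4, T5 and T6. It was the least counted heavy chain outside H2-Q6 and H2-Q7 in the V group, and its T libraries lay within 9 counts of each other. It went from 58.6 ± 3.71 to 9.25 ± 0.337 CPM (SD, n = 3 each), 6.34-fold lower (log2 fold change -2.66, SE 0.0820, edgeR adjusted p = 2.09e-13).

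B2m, the light chain of class I molecules, had 45791, 48655 and 48102 counts in V1, V2 and V3, and 14120, 11614 and 12404 counts in T4, T5 and T6. It had the most counts of the 10 members in every library. It went from 2975 ± 79.1 to 675 ± 44.2 CPM (SD, n = 3 each), 4.41-fold lower (log2 fold change -2.14, SE 0.0660, edgeR adjusted p = 2.12e-13), the smallest change among the members. Tap1, a subunit of the peptide transporter, had 9962, 9800 and 9630 counts in V1, V2 and V3, and 358, 362 and 356 counts in T4, T5 and T6. Its T libraries lay within 6 counts of each other. It went from 613 ± 16.2 to 19.1 ± 1.09 CPM (SD, n = 3 each), 32.1-fold lower (log2 fold change -5.01, SE 0.0713, edgeR adjusted p = 5.89e-17).

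Ranked from the most negative of the 14799 log2 fold changes, H2-Q6 stood at 30, H2-Q7 at 124, H2-Q4 at 179 and Tap1 at 205. H2-T22 stood at 304, H2-T23 at 340, H2-K1 at 363, H2-M3 at 523, H2-D1 at 524 and B2m at 670. All 10 thus stood among the 670 most negative.

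Because reads of near-identical heavy chains can be assigned to either of them, the 8 heavy chains were also added into 1 row and tested in the same way. The sum was 6438 ± 153 CPM with vehicle and 630 ± 35.0 CPM with β-SITO (SD, n = 3 each), 10.2-fold lower (log2 fold change -3.35, SE 0.0748, edgeR adjusted p = 1.35e-15). This sum does not depend on how reads were split among the 8 chains. For the other heavy chains the part shared exactly was small or none. H2-D1 shared 1.79% of its windows with H2-Q1, H2-T22 shared 0.931% with H2-T10, and H2-T23 shared 0.831% with Gm7030. H2-K1, H2-Q4, H2-M3, B2m and Tap1 shared none.

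Some members also lie across from a gene on the opposite strand, and whether counting used strand was not stated. Tap1 overlaps the immunoproteasome gene Psmb9 by 212 bases, and Psmb9 itself was a DEG in the same direction. H2-T23 lies within the lncRNA A930015D03Rik over 3083 bases, and H2-T22 overlaps it by 1316 bases. That lncRNA had at most 76 counts in any library. H2-Q4 overlaps the lncRNA Gm11131 by 676 bases, which had at most 104 counts. B2m lies within Patl2, which had 0 counts in all 6 libraries.

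Levels of different genes were compared as CPM per kilobase of exon, with all annotated exons of a gene counted. This gave 2938 bases for H2-K1 and 2579 for H2-D1, whose longest coding transcripts have 1619 and 2102 bases. The order of genes therefore depends on the lengths used. In the V group the order from the top was B2m (3459 ± 92.0 CPM per kb), H2-K1 (787 ± 16.4), H2-D1 (745 ± 30.7), H2-Q4 (294 ± 6.02), H2-T22 (233 ± 5.58), H2-T23 (182 ± 10.5), Tap1 (112 ± 2.96), H2-M3 (40.8 ± 2.58), H2-Q6 (15.3 ± 0.817) and H2-Q7 (6.72 ± 0.330; SD, n = 3 each). The ranges of H2-K1 and H2-D1 overlapped, and no other neighbours in this order did. In the T group the order was B2m (785 ± 51.4 CPM per kb), H2-D1 (118 ± 7.12), H2-K1 (69.2 ± 3.52), H2-T22 (15.2 ± 1.09), H2-T23 (14.5 ± 0.705), H2-Q4 (7.36 ± 0.583), H2-M3 (6.44 ± 0.234), Tap1 (3.49 ± 0.199), H2-Q7 (0.0849 ± 0.0951) and H2-Q6 (0.0262 ± 0.0270; SD, n = 3 each). H2-T22 and H2-T23 overlapped there, as did H2-Q7 and H2-Q6. H2-D1 moved above H2-K1, and H2-Q4 and Tap1 each stood below members that they were above with vehicle.

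The make-up of the heavy-chain pool differed as well, though the size of each share depends on the exon lengths used. As a share of the 8 heavy chains' counts per kilobase, H2-D1 was 31.8%, 32.9% and 32.3% in V1, V2 and V3 and 51.6%, 51.3% and 50.4% in T4, T5 and T6, a difference of 18.8 percentage points. H2-K1 went from 34.2% ± 0.251 to 30.0% ± 0.537, and H2-Q4 from 12.8% ± 0.192 to 3.19% ± 0.0806 (SD, n = 3 each). H2-T22 was 10.2%, 9.59% and 10.5% in V1, V2 and V3 and 6.71%, 6.50% and 6.52% in T4, T5 and T6. H2-T23 went from 7.91% ± 0.273 to 6.27% ± 0.119. H2-M3, from 1.77% ± 0.0704 to 2.80% ± 0.250, was the only chain besides H2-D1 with a larger share with β-SITO. H2-Q6 went from 0.663% to 0.0115% and H2-Q7 from 0.292% to 0.0354%. Groups did not overlap for any of the 8 chains, and each exact permutation test (two-sided, 3 against 3) gave p = 0.1, adjusted p = 0.1 over the 8 shares, the smallest p that this design allows. The 8 shares are parts of a whole, so a larger share of any chain lowers the others and they are not separate results. For CPM rather than shares, 35.8% of all tested genes had groups that did not overlap in the lower direction.

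**Figure D2:**
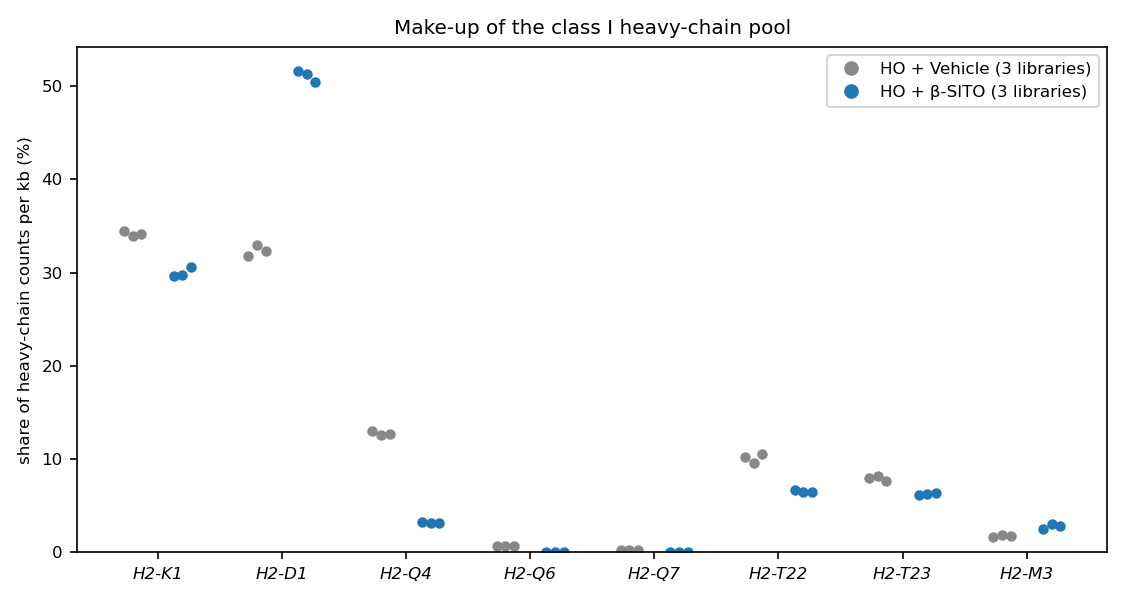
Share of each heavy chain in the summed heavy-chain counts per kilobase (%, linear axis from 0), with 1 point per library. H2-D1 goes from 32.3% of the pool on average in the HO + Vehicle libraries to 51.1% in the HO + β-SITO libraries, while H2-Q4 goes from 12.8% to 3.19%.

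Ratios within a library also showed unequal change. On the log2 scale of counts per kilobase, B2m over the summed heavy chains was 0.56, 0.58 and 0.61 in V1, V2 and V3 and 1.79, 1.79 and 1.72 in T4, T5 and T6. In linear terms this was 1.50 times as much B2m as heavy chain with vehicle and 3.40 times as much with β-SITO. Both values depend on the lengths used, which take in all annotated exons of a gene. These are 860 bases for B2m and 2938 for H2-K1, whose longest coding transcript has 1619. H2-K1 over H2-D1 went from 0.08 ± 0.04 to -0.77 ± 0.04, and H2-T22 over H2-T23 from 0.36 ± 0.12 to 0.07 ± 0.05 (log2, SD, n = 3 each). Tap1 over Tap2, the other subunit of the transporter, went from 1.25 ± 0.01 to -0.26 ± 0.09 (log2, SD, n = 3 each). The groups did not overlap for any of these 4 ratios, and each exact permutation test (two-sided) gave p = 0.1, adjusted p = 0.1 over the 4, the smallest possible. How often ratios of other genes separate in this way was not tested.

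Of 21 other class I names of the H2 locus, 16 rows were in the table and 6 were tested. All 6 were DEGs with lower levels (median log2 fold change -3.94), against 10.08% of all tested genes called lower. H2-Q5, which shares sequence with H2-Q7, went from 55.1, 56.3 and 57.0 CPM in V1, V2 and V3 to 0.308, 0.169 and 0.208 CPM in T4, T5 and T6 (log2 fold change -7.89). H2-Q5 too passed the filter only through its V libraries, so its lower call was close to fixed. The other 5 were H2-M2 (log2 fold change -4.92), H2-K2 (-3.95, the lncRNA row of that name), H2-Q10 (-3.93), H2-T10 (-3.80) and H2-T24 (-3.64). H2-M2, H2-Q10 and H2-K2 rested on at most 141 counts per library. The remaining rows had at most 3 counts in any library.

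Of 11 class I-like genes encoded away from the H2 locus, 8 were tested, none was a lower DEG and 1 was a higher DEG, against 12.8% of all tested genes called higher, and the list's median log2 fold change was 0.39. Ulbp1, a stress ligand of the NKG2D receptor, was 3.80-fold higher with β-SITO (11.4, 13.0 and 13.2 CPM in V1, V2 and V3 and 49.5, 47.3 and 46.3 CPM in T4, T5 and T6). Mr1, which presents vitamin metabolites to MAIT cells, had a log2 fold change of 0.85, and Fcgrt, the neonatal Fc receptor that pairs with B2m, one of 0.84. Cd1d1, which presents lipids (0.58), and Hfe, a regulator of iron uptake (0.20), also passed the adjusted p without reaching 2-fold, as 33.0% of all tested genes passed it in that direction at any fold. Procr (-0.39) passed it in the other direction, and the NKG2D ligands Raet1e (-0.33, adjusted p = 0.0777) and Raet1d (-0.31, adjusted p = 0.0856) did not pass.

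In the peptide loading machinery, 5 of 10 genes were DEGs, all with lower levels, against 10.08% of all tested genes called lower. The list's median log2 fold change was -0.97. Tap2 went from 184, 177 and 173 CPM in V1, V2 and V3 to 15.3, 15.7 and 16.3 CPM in T4, T5 and T6 (log2 fold change -3.50, SE 0.0662). Tapbp, which encodes tapasin and bridges heavy chains to TAP, fell by 3.14 on the log2 scale, and Tapbpl, the tapasin-related peptide editor, by 3.61. Erap1, which trims peptides in the endoplasmic reticulum, fell by 2.03. Canx, the chaperone calnexin, fell by 1.05, close to the 2-fold limit, and was under it without V3 (-0.96) or without T5 (-0.998). The general chaperones Calr (-0.90), Pdia3 (-0.69, ERp57) and Uggt1 (-0.58) and the sorting factor Bcap31 (-0.24) passed the adjusted p below 2-fold. Lnpep, a trimming enzyme of endosomes, had a log2 fold change of 0.05 (adjusted p = 0.521).

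**Figure D3:**
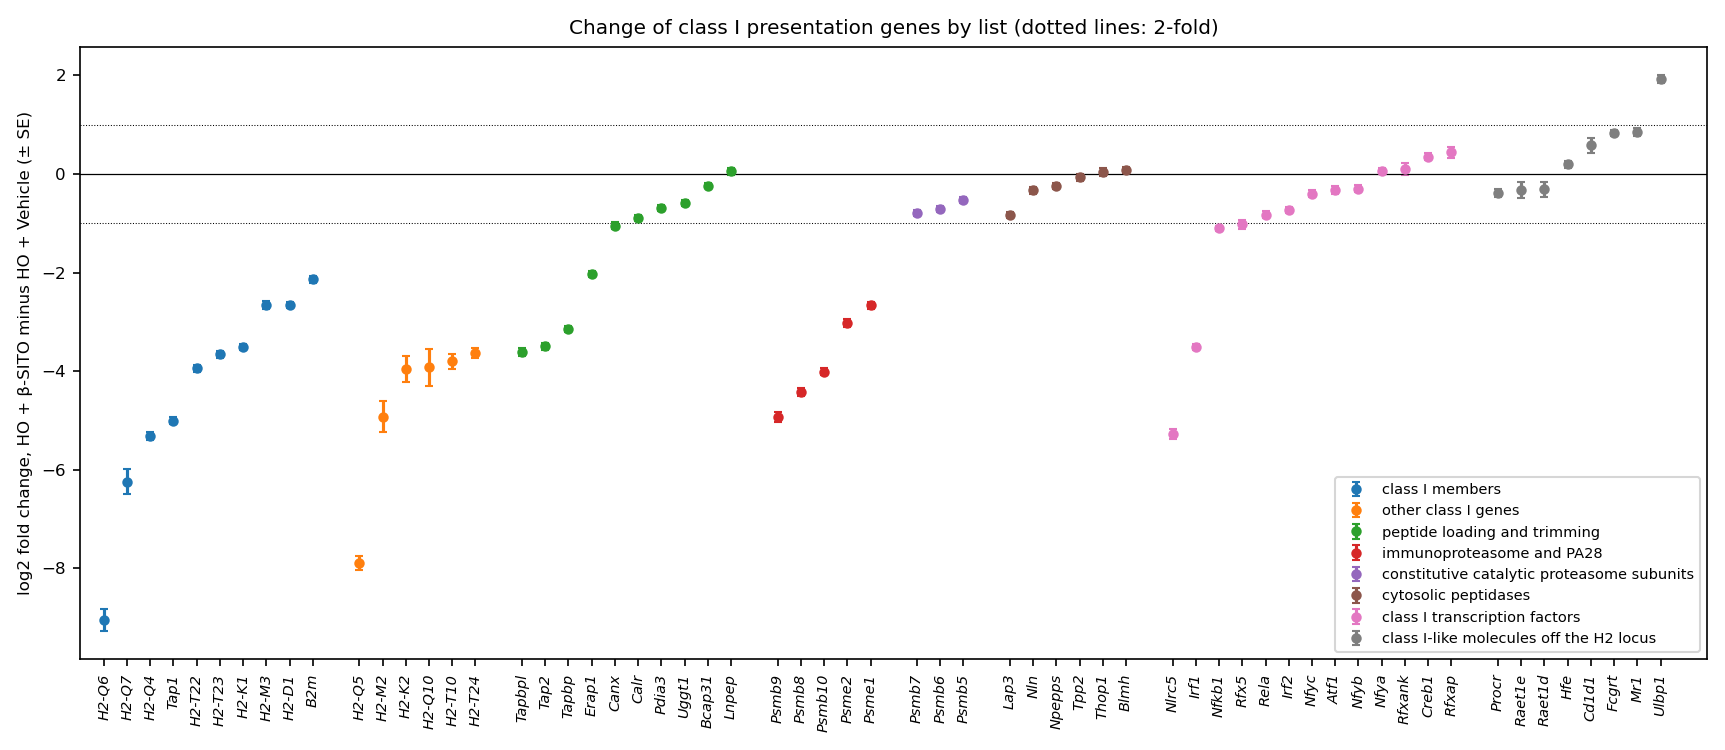
log2 fold change (HO + β-SITO minus HO + Vehicle, ± SE of the fit) of tested genes of the members and 7 other lists, grouped by list, with dotted lines at 2-fold. All 10 members, the 6 other class I genes and the 5 immunoproteasome and PA28 genes lie below the lower line, while the constitutive proteasome subunits and cytosolic peptidases lie between the lines and of the genes plotted Ulbp1 alone lies above the upper one.

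In the proteasome, all 5 genes of the immunoproteasome and its PA28 activator were lower DEGs, against 10.08% of all tested genes (list median log2 fold change -4.01). Psmb9, the subunit encoded beside Tap1, went from 129 ± 12.0 to 4.21 ± 0.361 CPM (log2 fold change -4.93), and Psmb8 and Psmb10, the other inducible subunits, changed by -4.42 and -4.01. Psme2 and Psme1, the PA28 subunits, changed by -3.02 and -2.67. None of the 3 constitutive catalytic subunits that these replace was a DEG, although Psmb7 (-0.79), Psmb6 (-0.71) and Psmb5 (-0.53) all passed the adjusted p, which 33.8% of all tested genes did in that direction. Of 6 cytosolic peptidases none was a DEG (median log2 fold change -0.16). Lap3 (-0.83), Nln (-0.34) and Npepps (-0.25) passed the adjusted p, and Thop1 (0.05), Blmh (0.09) and Tpp2 (-0.07) did not.

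Of 14 transcription factors known to act on class I promoters, 5 were lower DEGs, against 10.08% of all tested genes. None was a higher DEG, against 12.8% of all tested genes, and the list's median log2 fold change was -0.57. Nlrc5, the class I coactivator, was 154, 146 and 150 CPM in V1, V2 and V3 and 4.57, 3.77 and 3.28 CPM in T4, T5 and T6 (log2 fold change -5.27, SE 0.0931). Irf1 (-3.51), which acts downstream of interferons, was lower by an amount in the range of the heavy chains. Nfkb1 (-1.11) and Rfx5 (-1.02) lay just past 2-fold, and Rfx5 was under it without V1 (-0.93) or without T6 (-0.98). Rela (-0.82), Irf2 (-0.73), Nfyc (-0.41), Atf1 (-0.33) and Nfyb (-0.30) were lower, and Rfxap (0.43) and Creb1 (0.34) higher, at the adjusted p only. Rfxank (0.10) and Nfya (0.05) did not pass.

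Class II genes, whose products present peptides taken up from outside the cell, were at low levels. Of 10 genes 7 were tested and 5 were lower DEGs, against 10.08% of all tested genes (list median log2 fold change -1.74). These were H2-Aa (-5.01), Ciita, the class II counterpart of Nlrc5 (-4.93), Cd74, the invariant chain (-3.48), H2-Eb1 (-1.74) and H2-Ab1 (-1.13, and -0.90 without T4). H2-DMb1 (-0.64) and H2-DMa (-0.41) passed the adjusted p only. H2-Oa, untested with all libraries, was a lower DEG in 4 of the 6 fits without a library, from -4.30 without T4 or T6 to -3.49 without T5, with -4.26 without V3. Summed over the list, class II genes took 38.9 to 43.1 CPM in the V libraries and 14.2 to 16.1 CPM in the T libraries, against 9890 to 10278 and 1272 to 1412 CPM for the 10 class I members.

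Of 10 genes from receptor families that include readers of class I, 4 were tested. Not every gene listed is known to bind class I. Over all tested genes 10.08% were lower DEGs and 12.8% higher DEGs. Klra2 was a lower DEG (-1.68) and Lilra5 a higher DEG (1.90), both under 6 CPM in every library, and Pira2 was also a higher DEG without V1 (2.82) or without T6 (1.87). Pirb, an inhibitory receptor of myeloid cells that binds class I, had a log2 fold change of -0.84 and Lilrb4a one of 0.67. Klrd1 and Klrc1, which encode the receptor for H2-T23, and Cd8b1 and Kir3dl1 had 0 counts in all 6 libraries.

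All members but B2m lie on chromosome 17, and B2m lies on chromosome 2 (121978167 to 121983564, GRCm39, plus strand). The chromosome 17 members span 34214991 to 37585375, from H2-K1 (34214991 to 34219321, minus strand) to H2-M3 (37581111 to 37585375, plus strand). Between them lie H2-D1 (35481706 to 35486475), H2-Q4 (35598593 to 35604266), H2-Q6 (35643826 to 35649031) and H2-Q7 (35658131 to 35662749) on the plus strand, and H2-T23 (36340665 to 36343747) and H2-T22 (36348020 to 36353639) on the minus strand. Besides the members and the other class I genes, this span held 294 rows of the table, of which 92 were tested. Of these 21 (22.8%, against 10.08% of all tested genes) were lower DEGs and 4 (4.35%, against 12.8%) higher DEGs (7 without V1). Their median log2 fold change was -0.34. Leaving out genes on the lists above, 84 were tested, with 15 (17.9%) lower and 4 (4.76%) higher DEGs and a median of -0.28. The genes with at least 100 counts on average and the largest changes were Cfb, complement factor B (-7.87), Psmb9 (-4.93), Psmb8 (-4.42), the cytokine Tnf (-4.00) and Tap2 (-3.50). Tap1 (34406527 to 34416199), Psmb9 (34400961 to 34406738), Psmb8 (34416695 to 34420428) and Tap2 (34422501 to 34435295) lie side by side there, and all 4 were lower DEGs.

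**Figure D4:**
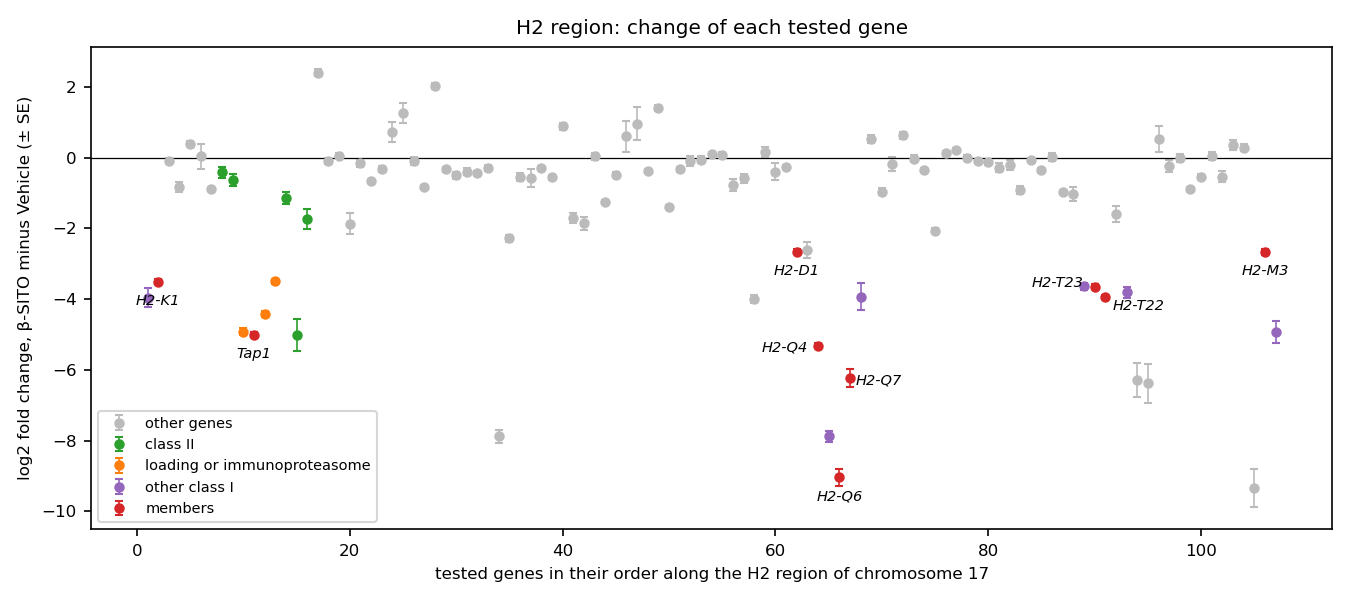
log2 fold change (± SE) of each tested gene against its order along the H2 region of chromosome 17, coloured by kind. The members and the other class I genes lie below -2, among genes of which most lie near 0 and a few, such as Cfb at -7.87, lie as low.

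The 5 genes whose levels over the 6 libraries were closest in shape to the members' mean profile, of 10982 genes with at least 100 counts on average, were Ccl3, Irgm2, Psmb8, Slc15a3 and Gm20559. The measure was the root mean square distance between centred log2 CPM values over 6 libraries, which was 0.0516 for Ccl3, 0.0750 for Irgm2, 0.0845 for Psmb8, 0.0856 for Slc15a3 and 0.0872 for Gm20559. Ccl3 encodes a chemokine and Irgm2 an interferon-inducible GTPase. As the members differ mainly between groups, this likeness rests mainly on the size of the difference between V and T. Single members lay farther from their own mean profile, from 0.176 for H2-T22 to 1.70 for H2-Q6. The likeness is thus to the mean and not to each member.

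Markers of several cell types moved with the groups. The calls below stand against 10.08% of all tested genes called lower and 12.8% called higher. Cardiomyocyte markers were present, from 6097 to 7067 CPM summed over 10 genes in the V libraries and from 5523 to 9430 CPM in the T libraries, with T4 lowest of all, and 3 of 10 were higher DEGs, Myl7 (2.39), Myh7 (1.61) and Nppa (1.50). Fibroblast markers summed to 29833 to 31113 CPM with vehicle and 44413 to 45501 CPM with β-SITO, with none of 8 a DEG (Lum was a higher DEG without V3, 1.05, or without T6, 1.02), so markers of other cells were also abundant in these cultures. Endothelial markers went from 700 to 779 CPM to between 1207 and 1226 CPM, with 7 of 8 genes higher DEGs, Vwf (4.09), Emcn (2.51), Kdr (2.40), Tie1 (2.12), Tek (1.91), Cdh5 (1.84) and Pecam1 (1.84). Smooth muscle and pericyte markers went from 1080 to 1163 CPM to between 1856 and 2097 CPM, with Cnn1 (2.77), Myh11 (1.57) and Rgs5 (1.30) higher of 6 (5 without T5). Macrophage markers went from 1330 to 1462 CPM to between 2806 and 3449 CPM, with 7 of 10 higher DEGs. Fcgr1 (-2.18) and Cd14 (-1.56) were lower DEGs, and Adgre1 (-0.06) was not a DEG. The higher ones were Mrc1 (4.79), C1qa (1.70), Cd68 (1.60), C1qc (1.57), Csf1r (1.54), C1qb (1.36) and Lyz2 (1.12).

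T4 was the highest T library for the macrophage markers and for the members' sum, with 1412 CPM against 1272 in T5 and 1287 in T6. Of the T and NK cell markers Cd3e, Cd3g and Ncr1 had 0 counts in all libraries, 2 of 7 were tested and Cd4 (2.28) was a higher DEG (Trac, 1.23, too without V1), and the list summed to at most 3.82 CPM. Of the B cell markers only Pax5 was tested, and it was at 12.1 to 12.7 CPM in the V libraries and 0 in all T libraries. Of the dendritic cell markers 4 of 6 were tested, with Batf3 lower (-2.45) and Clec9a higher (2.48), and the list summed to 16.9 to 19.0 CPM with vehicle and 19.9 to 21.9 CPM with β-SITO. Erythroid markers were not tested for low counts, and Hbb-bs and Hbb-bt were at 0. The part of these cell types in the change of the members was not tested.

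**Figure D5:**
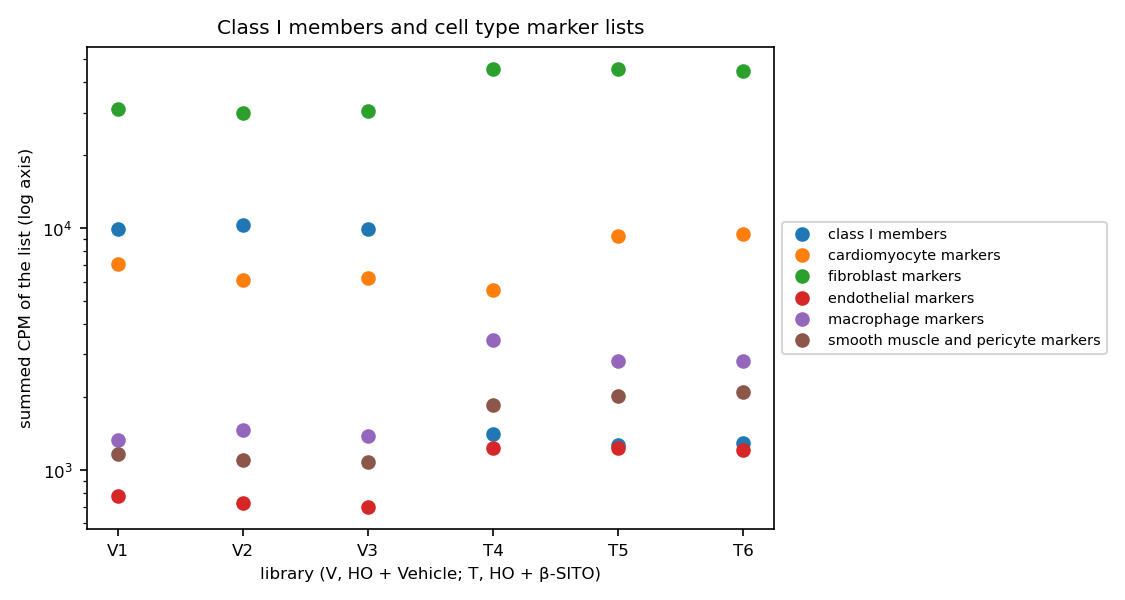
Summed CPM (log axis) of the 10 members and of 5 cell type marker lists in each library. The members lie at 9890 to 10278 CPM in V1 to V3 and 1272 to 1412 CPM in T4 to T6, while the fibroblast, endothelial, macrophage and smooth muscle lists are higher in every T library than in every V library.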

How the data were processed

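RNA-seq libraries of hypoxic NMCMs were compared, 3 with vehicle against 3 with β-SITO, grouped by their sample titles. The authors deposited raw counts per gene for all 6 libraries in 1 table, without normalization. The submitters' processing notes name FastQC, HISAT2, featureCounts and GRCm39, with no versions. The library kit differs between the study (ABclonal) and the labels (Illumina TruSeq). Reads falling in near-identical class I genes may have been split or dropped by counting.

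The 10 members and all gene lists were chosen with earlier results of these data known. Counts were filtered with filterByExpr, scaled by TMM and tested with edgeR 4.0.16 (glmQLFit, glmQLFTest; R 4.3.3), with group as the only term and Benjamini-Hochberg adjustment over 14799 genes. A DEG had adjusted p under 0.05 and more than 2-fold change. The study's tool, DESeq2 (1.42.0), was run as an alternative, as were limma-voom (limma 3.58.1), other scalings and filters, and fits without each library. The fit was tested on simulated data. Shares and ratios were compared by two-sided exact permutation tests (scipy 1.17.1; 20 arrangements, smallest p = 0.1). The deposited table holds no gene length, so exon lengths of the same gene identifiers in GENCODE vM21 (GRCm38) were used for values per kilobase, and its transcripts for shared windows of 150 bases. Depth, 16694734 to 18460522 counts per library, sets the precision of low genes, where 3 counts were taken as the floor. Named genes were the 10 members; all tested genes of a list of 10 or fewer and the DEGs of longer lists, besides the off-locus class I-like genes and the transcription factors, which are named; up to 5 H2-region genes with at least 100 counts on average; the 5 genes nearest in profile; and cell type markers that moved with the groups. A few genes that the list counts include are not reported here by name. No sample columns were left out.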

Additional observations from a re-analysis of the deposited data

How the results depend on the processing

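Each of the 10 members stayed a DEG with lower levels in all 15 fits run, from B2m (log2 fold change -2.19 to -1.99) to H2-Q6 (-9.89 to -8.49) and H2-Q7 (-7.65 to -5.74). Upper quartile scaling and library size only moved the median of all genes by 0.14 and 0.15. Without the 2-fold limit, calls were 5007 lower and 4885 higher over all genes, and 1 lower and 5 higher for off-locus class I-like genes. On that rule 9 loading genes, 3 constitutive subunits and 3 peptidases were lower, and transcription factors were 10 lower and 2 higher. Receptors were then 2 lower and 2 higher, and H2-region genes 51 lower and 12 higher. Lower transcription factors numbered 3, not 5, with glmTreat, upper quartile scaling and library size only, which lost Nfkb1 and Rfx5. Canx and H2-Ab1 were lost in the same 3 fits, and Canx, Rfx5 and H2-Ab1 also when single libraries were left out. Lower receptors numbered 0 with glmTreat and with a minimum of 1 CPM in 3 libraries. Without a filter there were 2 higher receptors, 1 higher class II gene and 10 higher H2-region genes. Leaving out single libraries gave 1 to 2 higher receptors and 4 to 7 higher H2-region genes. With counts not divided by length, share differences were -3.62 points for H2-K1, -8.82 for H2-Q4, -0.486 for H2-Q6, -0.390 for H2-Q7, -4.14 for H2-T22 and 0.564 for H2-M3. The causes were not tested. No paired analysis was possible because the groups share no replicate numbers. With 3 libraries a group, the exact tests could not go below 0.1, and H2-Q6 and H2-Q7 were at the limit of depth with β-SITO.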
